A study of Homo sapiens with 17 samples.

Results

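HOX genes encode transcription factors that give cells their position along the body axis. They lie in 4 clusters, HOXA to HOXD, in which the order of the genes along the chromosome follows the order of their expression domains from head to tail. Paralogs, the genes of equal number in different clusters, descend from one ancestral gene, and Trithorax proteins keep HOX genes active while Polycomb proteins keep them silent. Each HOX protein binds DNA through a homeodomain and often does so together with a TALE homeodomain cofactor of the PBX, MEIS or PKNOX families. All genes of the count table named HOX, a cluster letter and a number were taken, which gave 39 of 23368 genes: 11 in HOXA, 10 in HOXB, 9 in HOXC and 9 in HOXD. The clusters lay on chromosome 7, chromosome 17 (hg19, 46606807 to 46806111), chromosome 12 (54332576 to 54449814) and chromosome 2 (176957532 to 177055635). By paralog number 8 were anterior (1 to 3), 15 central (4 to 8) and 16 posterior (9 to 13).

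The samples were poly(A) RNA of HEK293T, a human embryonic kidney cell line, measured by acRIP-seq. The assay sequences RNA that an antibody against N4-acetylcytidine (ac4C), an acetylated base written by NAT10, has captured. WT cells, for which the labels name no control siRNA, and cells given an siRNA against TARDBP (siTDP43), which encodes the RNA-binding protein TDP43, each gave 3 kinds of library: whole input RNA, RNA captured with anti-ac4C (IP), and RNA captured by a control immunoglobulin (IgG). Each group had 3 libraries except WT IgG, with 2. Nothing in the labels says whether libraries of a group came from separate cultures, so the p-values cover the spread between these libraries, which may be technical. All values are relative within a library, so a shift shared by all RNA would not appear in them. Every contrast of siTDP43 with WT holds transfection, the knockdown and any batch together, and these cannot be told apart. Since bulk RNA was measured, fewer cells with a transcript and less transcript per cell cannot be told apart either.

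The homeobox is a DNA stretch that all members share, so the exons of the members were compared for identical runs. Outside shared exons the longest exact run between any pair of HOX genes was 62 bases, between HOXB3 and HOXD3, and 3 of 741 pairs shared a run of at least 50 bases.

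The C-rich motif UCCCAGCU was searched in the exons of all genes, on the sense strand and within exon blocks, since the study asked which sequences mark acetylated mRNA. It was present in 3 of 39 HOX genes (7.69%), against 12.95% of the 13147 genes of 802 to 3618 exon bases, the range of the HOX genes. The sites are given with the motif in capitals.
HOXA3 (chr7:27146383-27146408, minus strand): cugcccgguUCCCAGCUgcugcggag
HOXA10 (chr7:27210850-27210875, minus strand): uguaagauaUCCCAGCUuuaaaaaga
HOXC11 (chr12:54367637-54367662, plus strand): gaacacaaaUCCCAGCUcguccgguu
The motif UGUGCG was present in 23.1% of HOX genes and in 22.5% of the other set, and GUGUGU in 35.9% and 40.6%. These are matches of letters and say nothing of binding. The exons of HOX genes had a median GC content of 55.6% (range 46.7 to 66.7), against 49.4% for 23093 genes with sequence.

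Library totals in WT were 27718784 to 36583436 counts for input, 19615316 to 21066215 for IP and 9022250 to 9466855 for IgG. For siTDP43 they were 24542434 to 31030950, 8610070 to 15736165 and 3013989 to 3436811. The IgG libraries of siTDP43 were therefore the shallowest, and 28 to 30 HOX genes had a count in them, against 36 to 37 in the inputs. TARDBP itself was at 150 to 157 CPM (the count as a rate of the TMM-scaled library size) in WT input and at 98.6 to 106 CPM in siTDP43 input, 67.2% of WT (log2 change -0.57, SE 0.045, edgeR adjusted p = 6.55e-13; exact two-sided permutation p = 0.1, the smallest that 3 against 3 libraries allow). As a check of the labelled line, 8 kidney developmental genes summed to 45.8 to 46.8 CPM in WT input with only OSR1 at 0, and to 51.8 to 59.4 CPM in siTDP43 input. Of other cell types, 5 leukocyte genes summed to 8.3 to 10.6 CPM in WT input and 7.96 to 8.44 CPM in siTDP43 input, with PTPRC at 0. Summed over 6 fibroblast genes the levels were 11.8 to 12.2 and 4.24 to 5.39 CPM, with COL1A2 at 0, and over 3 endothelial genes at most 0.204 CPM, with PECAM1 and CDH5 at 0. NEFL, NEFM and INA, neurofilament genes that HEK293 cells express, had sums of 126 to 136 CPM in WT input and 222 to 235 CPM in siTDP43 input, but of 2502 to 3061 CPM in WT IP. The part of these genes in the HOX results was not tested.

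HOX transcripts were low but present across all 4 clusters. In WT input the highest level per length was that of HOXC10, a posterior gene, at 11.3 ± 0.946 FPKM (CPM per kilobase of exon; SD, n = 3). HOXB7 followed at 10.2 ± 0.411 FPKM and did not differ beyond the libraries' spread, since the ranges overlapped. By full exon length HOXA5 at 8.96 ± 0.167 FPKM and HOXD13 at 8.08 ± 0.739 FPKM led their clusters. HOXA9 and HOXA10 share 72.6% and 19.3% of their exon bases with the read-through gene HOXA10-HOXA9, which had no count in any library. Reads in these bases may not have been assigned to any gene, so the levels per length of both genes may be too low. The lead of HOXA5 in HOXA, and of HOXC10 over all members, is therefore uncertain. HOXB1, HOXC12 and HOXD12 held at most 2 counts in any of the 17 libraries. Over the 3 WT inputs a count of 0 allows up to 0.0287 CPM if each count is 1 fragment. Adding all members, the HOX sum was 223 to 230 CPM for WT input, 620 to 622 CPM for IgG and 819 to 869 CPM for IP. In siTDP43 the sums were 394 to 405 CPM in input, 833 to 931 CPM in IP and 928 to 944 CPM in IgG. Both pull-downs thus held more HOX counts than the input of the same genotype, and the control antibody did so too. Scaled by total counts alone the sums, as CPM, were 244 to 248, 969 to 999 and 670 to 675 in WT, and 405 to 414, 777 to 809 and 755 to 772 in siTDP43, so that the order of the IP groups depended on the scaling.

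**Figure D1:**
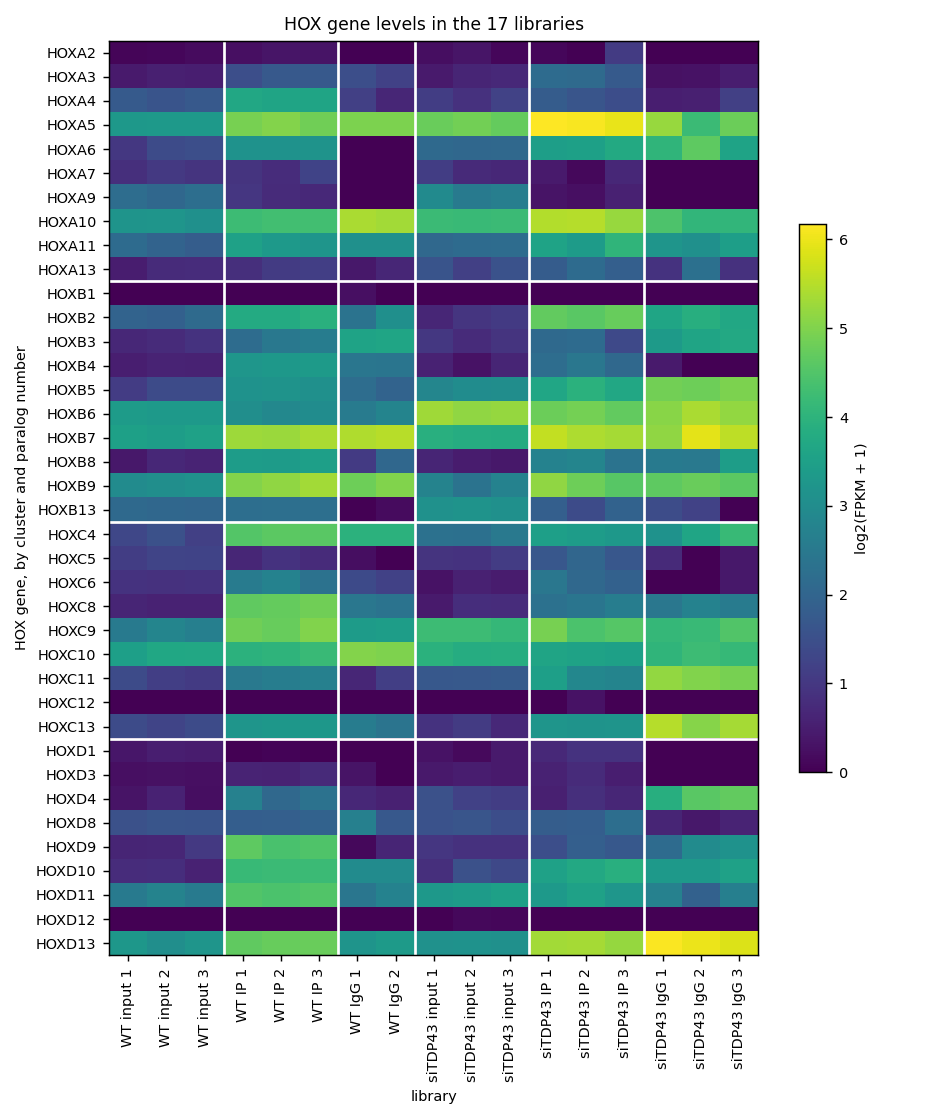
Level of HOX genes (rows, by cluster and paralog number) in each of the 17 libraries (columns, by group) as log2(FPKM + 1), where brighter colours are higher. HOXB1, HOXC12 and HOXD12 are dark throughout, while HOXA5 and HOXB7 are bright in the pull-downs of both genotypes, and HOXD13 in all of these but WT IgG.

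The order of levels was not the same in the pull-downs. In WT IP the leading genes of the clusters were HOXB7 (38.6 ± 2.11 FPKM), HOXA5 (29.5 ± 1.99 FPKM), HOXC9 (28.2 ± 2.58 FPKM) and HOXD13 (25.5 ± 0.951 FPKM). HOXB7 and HOXB9 (35.0 ± 3.51 FPKM) overlapped, as did HOXA5 and HOXC9. HOXC4 was at 23.0 FPKM over its full exon length, of which 23.8% is shared with HOXC5 and HOXC6. The lead of HOXC9 in HOXC is therefore uncertain. In siTDP43 IP, HOXA5 led at 67.3 ± 4.61 FPKM and stood clear of HOXB7 at 43.1 ± 4.03 FPKM, while HOXD13 reached 38.4 ± 2.13 FPKM and HOXC9 24.1 ± 4.42 FPKM. HOXC8 was at 0.519 FPKM in WT input and had the fifth level of WT IP, at 25.9 FPKM.

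The first comparison asked which HOX mRNAs changed in abundance after TDP43 knockdown. Most that changed rose, led by the central genes HOXD4, HOXB5 and HOXB6, while HOXB2, HOXC6 and HOXA4 were lower. In siTDP43 input 17 of 35 tested HOX genes were called higher and 5 lower (edgeR quasi-likelihood, adjusted p under 0.05), against 38.6% and 40.6% of all 14036 genes tested. The median log2 change of the HOX genes was 0.34, beside -0.05 over all genes. HOXB6 was at 15.1 to 15.8 CPM in WT and 57.8 to 64.5 CPM in siTDP43 input, and the groups lay far apart (log2 change 1.99, SE 0.070, adjusted p = 9.86e-22). HOXB5, which lies beside it, read 2.05, 3.05 and 3.05 CPM in WT input and 11.2, 12.8 and 13.1 CPM in siTDP43 input (2.18, SE 0.16, adjusted p = 8.62e-14). HOXD4 was low, at 0.331, 0.661 and 0.228 CPM in WT and 2.46, 1.66 and 1.53 CPM in siTDP43 (2.18, SE 0.40, adjusted p = 1.44e-05). HOXB2, a gene of hindbrain patterning, went the other way, from 4.40 to 5.47 CPM in WT to 0.946 to 1.70 CPM in siTDP43 (-1.81, SE 0.23, adjusted p = 3.07e-08). HOXC6 dropped from 1.88 to 1.98 CPM to 0.505 to 1.07 CPM (-1.27, SE 0.33, adjusted p = 1.04e-03), and HOXA4 from 3.54 to 4.07 CPM to 1.47 to 2.27 CPM (-0.99, SE 0.22, adjusted p = 1.90e-04). These 6 genes were chosen among those without overlap between the libraries of the groups, so their separation follows from the choice.

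**Figure D2:**
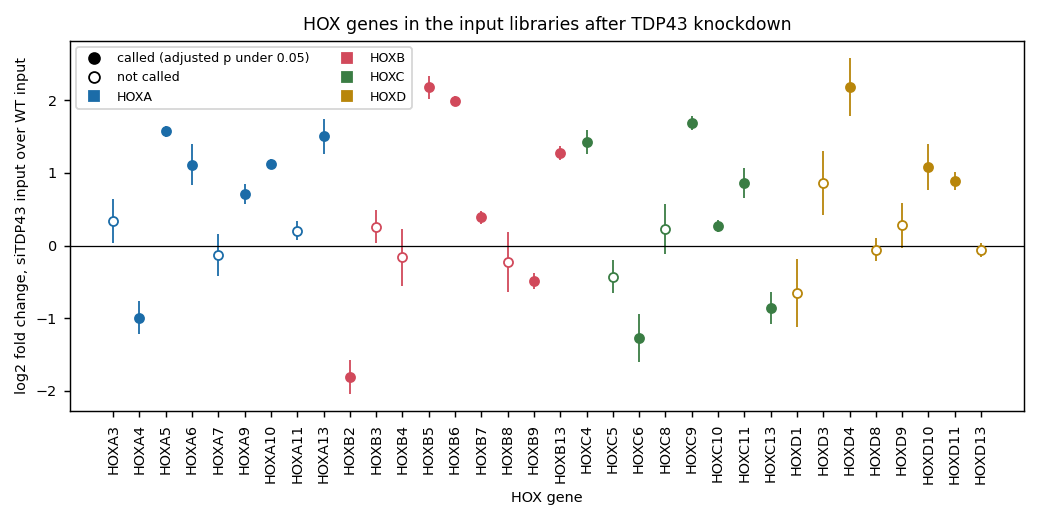
Log2 fold change of tested HOX genes between siTDP43 input and WT input, with bars of 1 standard error of the edgeR fit and filled points for called genes, coloured by cluster. HOXB5 and HOXD4 are highest at 2.18, and HOXB2 is lowest at -1.81.

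By position, 9 of 14 posterior genes tested were higher and 2 lower, 7 of 15 central genes were higher and 2 lower, and of 6 anterior genes 1 was higher and 1 lower. The posterior genes that rose were led by HOXC9 (1.69, SE 0.10) and HOXA13 (1.5, SE 0.24), a gene of limb and hindgut development. HOXC13, which acts in hair formation, was lower by the main test (-0.86, SE 0.23), but after removal of a GC trend from each library its value was -0.46 and the call was lost. In HOXA 6 of 10 tested genes rose, in HOXB 4 of 9, in HOXC 4 of 8 and in HOXD 3 of 8. Beside these counts by position and cluster, 38.6% of all genes tested were higher and 40.6% lower. Members of 1 cluster did not move as a block: HOXB5 and HOXB6 rose while HOXB2 and HOXB9 (-0.48, SE 0.11) were lower. HOXC4, HOXC5 and HOXC6 share 557 exon bases in the table, so that reads in this exon could not be assigned to 1 of them, and their values of 1.42, -0.43 and -1.27 rest on the rest of their exons.

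Genes known to act with or on HOX genes also moved in the inputs. Of 9 TALE cofactors, 4 were higher and 3 lower, with MEIS1 at 2.29 and PKNOX1 at 1.94 on the log2 scale, and MEIS3 at -2.23. Among 17 tested Polycomb genes 5 were higher and 10 lower (median -0.52), with SUZ12, a core subunit of the H3K27 methyltransferase, at -1.86. Of 12 genes of the trithorax and activation list 3 were higher and 8 lower (median -0.72), with KMT2A, the MLL methyltransferase that maintains HOX expression, at -0.93. Retinoic acid is a classic inducer of HOX genes, and of 9 genes of its pathway 3 were higher and 5 lower: the receptor gene RARA had -2.90, and ALDH1A2, which makes retinoic acid, had 2.20. Among 11 other homeobox genes near or related to the clusters only 4 were expressed enough to test, with CDX2 at 1.01 and PDX1 at -2.63. All of these stand against 38.6% higher and 40.6% lower over all genes, and no link between these changes and those of the HOX genes was tested.

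The second comparison asked which HOX transcripts the anti-ac4C antibody enriched from WT RNA. Against input, enrichment was wide: 25 of 36 tested HOX genes were called more than 2-fold higher and 3 lower (adjusted p under 0.05), against 30.2% and 27.3% of all 14751 genes tested. Their median log2 change was 2.02, beside 0.01 over all genes. HOXC8 rose most. It had 1.26, 1.17 and 1.14 CPM in input and 56.1, 58.3 and 63.5 CPM in IP, so that every IP library was far above every input library (log2 change 5.65, SE 0.13, adjusted p = 6.89e-22). HOXD9 read 1.06, 1.12 and 1.94 CPM in input and 45.5, 38.2 and 39.9 CPM in IP (4.91, SE 0.18, adjusted p = 1.27e-17). Its neighbour HOXD10 read 1.32, 1.35 and 0.912 CPM in input and 30.3, 31.5 and 31.7 CPM in IP (4.71, SE 0.15, adjusted p = 6.56e-19). By level per length HOXC8, HOXD9 and HOXD10 ranked 29, 25 and 27 of the 39 members in WT input and 5, 8 and 11 in WT IP.

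In the other direction, HOXA9 was depleted in WT IP, with 6.51 to 7.58 CPM in input and 1.28 to 1.98 CPM in IP (-2.18, SE 0.23, adjusted p = 1.04e-08). Of its exon bases 72.6% also belong to the read-through gene HOXA10-HOXA9, so its counts are uncertain. HOXD1 had 0.595 to 0.865 CPM in input and 2 counts in all WT IP libraries together, a ratio of 0.0377 (95% counting interval 0.00448 to 0.141, by the exact binomial method). Such intervals cover counting error only, and as most low counts in the table were even, 2 counts may be 1 fragment.

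The IgG control showed which HOX transcripts also had a higher share in a pull-down without the anti-ac4C antibody. As levels are relative within a library, it gives no amount of RNA captured. In WT IgG against input, 15 of 36 HOX genes were called higher and 8 lower, against 24.4% and 36.6% of all genes, with a HOX median of 0.82 beside -0.39. HOXB3 had 2.25 to 3.11 CPM in input and 40.0 and 41.1 CPM in IgG (3.98, SE 0.17, adjusted p = 1.90e-16). HOXC4 (3.26, SE 0.14) and HOXD10 (3.41, SE 0.19) were also far higher in IgG than in input. HOXA6, HOXA7, HOXA9, HOXD1 and HOXA2 had no count in either WT IgG library. Against a floor of 3 counts over that group, HOXA9 was at least 47.5-fold, HOXA7 at least 12.3-fold and HOXA6 at least 8.10-fold lower in IgG than in input. This floor takes each count as 1 fragment, and with 2 counts per fragment the bounds would be weaker. Exons of HOXA7 overlap the antisense gene HOXA-AS3 over 74.6% of their bases, and without a stated strand option its reads and those of that gene cannot be told apart.

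Set against IgG instead of input, 22 of 36 HOX genes were higher in WT IP and 4 lower, beside 35.2% and 17.8% of all genes. The HOX median was 1.41, or 1.30 with the genes at 0 in IgG set at their bounds, beside 0.29 over all genes. HOXA6 read 6.36, 6.37 and 6.38 CPM in IP and was at least 42.5-fold higher than in IgG, HOXA7 at least 13.4-fold and HOXA9 at least 10.5-fold. Of the members with counts in both groups HOXD9 rose most, with 0.194 and 1.03 CPM in IgG against 38.2 to 45.5 CPM in IP (6.07, SE 0.32, adjusted p = 2.85e-14). HOXB13, a posterior gene known from prostate development, had 0 and 4 counts in the WT IgG libraries and 11.3 to 11.6 CPM in IP (5.79, SE 0.42). All 4 IgG counts lay in 1 library, and the value was as low as 2.34 among the alternatives, where the call was kept. Over input it was not called (0.25, SE 0.15). HOXB3 (-1.37, SE 0.15) and HOXA10 (-1.14, SE 0.074) were lower in IP than in IgG. HOXC10 was at the threshold (-1.01, SE 0.10). Its value was -0.97, -0.99 and -0.99 without WT IP replicate 1, without WT IP replicate 2 and without WT IgG replicate 1, and the call was lost each time.

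Transcripts higher in IP than in both controls were called ac4C(+). In WT these were 16 of 36 HOX genes (44.4%), beside 15.6% of all genes: HOXA4, HOXA6, HOXB2, HOXB4, HOXB5, HOXB8, HOXC6, HOXC8, HOXC9, HOXC11, HOXD3, HOXD4, HOXD9, HOXD10, HOXD11 and HOXD13. HOXD held 6 of its 8 tested genes, HOXC 4 of 8, HOXB 4 of 9 and HOXA 2 of 11. Of the tested central genes 8 of 15 were ac4C(+), of the posterior 6 of 14 and of the anterior 2 of 7. The level of the call varied widely among them, from HOXD9, at 4.91 over input and 6.07 over IgG, to HOXB4, at 4.18 over input and 1.01 over IgG. HOXB4 read 17.2 to 18.9 CPM in IP and 8.64 and 8.92 CPM in IgG, and its call over IgG ended without WT IP replicate 3 (0.97) or without WT IgG replicate 2 (0.99). Likewise HOXB2 (1.18 over IgG) fell to 0.81 without WT IgG replicate 1, and HOXD3 (2.08) to 1.13 without WT IgG replicate 2. With the GC trend removed HOXD11 had 0.45 over input in place of 2.05 and lost its call. HOXD3 lost its call over input as well (1.05, edgeR adjusted p = 0.0510), and both losses lower the count in HOXD. HOXB2 (0.94) and HOXB4 (0.75) lost their calls over IgG in that setting. A fold over IgG above 5 left 6 genes: HOXA4, HOXA6, HOXC8, HOXC11, HOXD4 and HOXD9. Of the genes with the motif UCCCAGCU, HOXC11 was ac4C(+) in WT, while HOXA3 and HOXA10 were not.

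**Figure D3:**
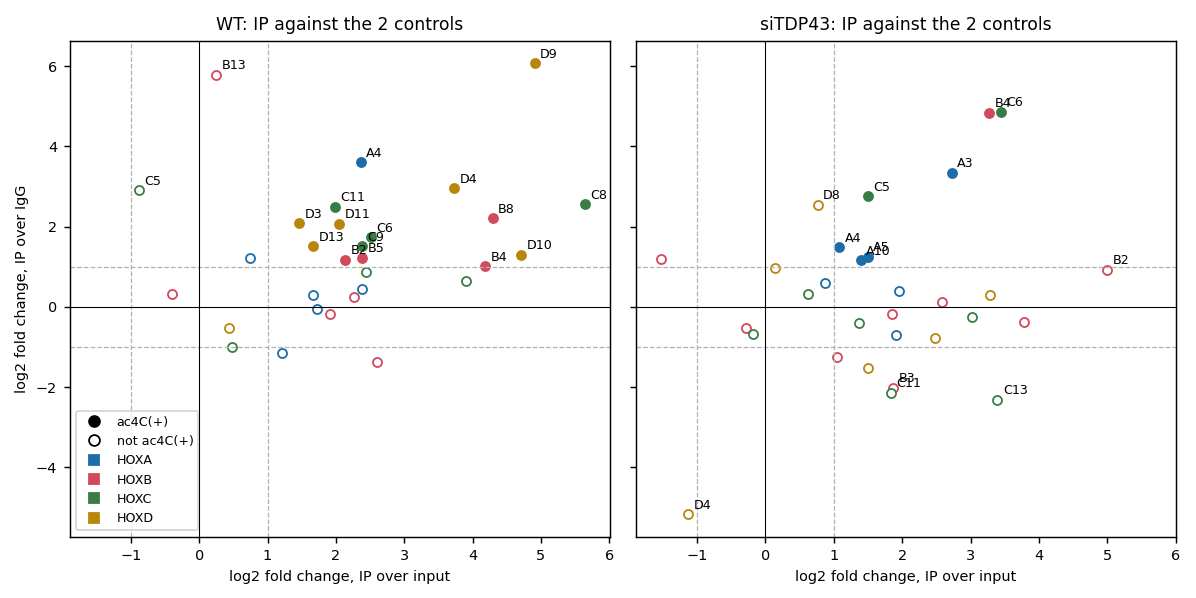
Log2 fold change of IP over input (x axis) and of IP over IgG (y axis) for the tested HOX genes, in WT (left) and siTDP43 (right), with filled points for ac4C(+) genes and dashed lines at 2-fold; genes without a count in the IgG libraries, among them the ac4C(+) genes HOXA6 in WT and HOXD1 in siTDP43, are not drawn. HOXD9 is at the top right in WT and below 0 over IgG in siTDP43, and HOXD4 goes from 3.73 and 2.96 to -1.13 and -5.16.

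The other ac4C(+) genes of WT differed in how they stood to the controls. HOXC11 read 9.42, 10.5 and 11.1 CPM in IP, 2.17 to 3.34 CPM in input and 1.16 and 2.47 CPM in IgG, so both controls were about equally low (1.98 over input and 2.50 over IgG). HOXA4 read 19.2 to 20.7 CPM in IP, 3.54 to 4.07 CPM in input and 1.03 and 2.13 CPM in IgG (2.36 and 3.61). HOXD4 read 4.24 to 7.23 CPM in IP against 0.617 and 0.776 CPM in IgG (3.73 and 2.96). None of these libraries overlapped between IP and a control, which largely follows from the choice of these genes as ac4C(+) on the same libraries. HOXB8 had 17.3 to 18.6 CPM in IP and at most 1.12 CPM in input, but 1.94 and 5.76 CPM in the IgG libraries (4.29 and 2.21). HOXD13 was abundant in all fractions, with 57.1 to 61.5 CPM in IP, 16.9 to 20.2 CPM in input and 19.2 and 21.8 CPM in IgG (1.67 and 1.52). HOXC9 had 39.9 to 47.8 CPM in IP and 14.7 and 15.2 CPM in IgG (2.38 and 1.52), and HOXB5 13.7 to 14.6 CPM and 5.35 and 6.59 CPM (2.38 and 1.23). In the last 3 genes the control pull-down held more of the measured level than in HOXC11 or HOXA4.

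The same questions were put to the knockdown cells. In siTDP43, 23 of 35 tested HOX genes were higher in IP than in input and 3 lower, beside 26.8% and 25.4% of 12746 genes tested, with a HOX median of 1.5 beside -0.09. HOXB2, low in this input at 0.946, 1.5 and 1.70 CPM, had 39.8, 37.0 and 41.6 CPM in IP, and the groups were far apart (4.99, SE 0.21, adjusted p = 1.41e-15). HOXB8 (3.78, SE 0.35) and HOXC6 (3.44, SE 0.40) followed. HOXA9 (-4.07, SE 0.38) and HOXB13 (-1.53, SE 0.27) were lower in IP. HOXD4 was lower too (-1.13, SE 0.43, adjusted p = 0.0207), but without siTDP43 input replicate 1 it had -0.90 and without siTDP43 IP replicate 1 -0.91, and neither passed.

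In these cells the control pull-down held about as many HOX counts per library total as the antibody. Between siTDP43 IgG and input 16 HOX genes were higher and 6 lower, beside 24.7% and 41.0% of all genes. The HOX median was 0.32 beside -0.58 over all genes; scaling by total count moved these to -0.23 and -1.13, so its sign depended on the scaling while its distance from all genes was kept. HOXC13 read 2.08, 2.61 and 1.56 CPM in input and 105, 77.7 and 94.6 CPM in IgG, above its 19.2 to 19.99 CPM in IP (5.70 for IgG over input, SE 0.19, adjusted p = 1.52e-17). HOXB8 (4.15, SE 0.39) and HOXB2 (4.07, SE 0.24) were also higher in IgG than in input. HOXD13, a gene of digit formation, had 17.7 to 18.2 CPM in input, 83.7 to 93.1 CPM in IP and 132 to 161 CPM in IgG. HOXA9, at 0 in all 3 IgG libraries, was at least 31.3-fold lower than in input, HOXA7 at least 4.51-fold and HOXD3 at least 2.26-fold.

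Over IgG, 14 of 35 HOX genes were called higher in siTDP43 IP and 6 lower, beside 34.0% and 15.0% of all genes, with a HOX median of 0.38 beside 0.33. HOXD1, HOXD3 and HOXA7 had no count in IgG and gave lower bounds of 4.09-fold, 3.40-fold and 1.87-fold for IP over IgG, and HOXA9 one of 1.62-fold. The bounds of HOXA7 and HOXA9 are under 2-fold, so these genes are among the 14 by their fitted values only. With 2 counts per fragment all of these bounds would be lower, and that of HOXD3 could also be under 2-fold. For HOXA7 (adjusted p = 0.0312) the call was lost without siTDP43 IP replicate 3 or without any 1 of the IgG libraries, and so was that of HOXA9. HOXD4 was lowest, at 0.594, 1.01 and 0.747 CPM in IP and 17.6, 29.9 and 32.0 CPM in IgG (-5.16, SE 0.41, adjusted p = 4.62e-10). HOXC13 (-2.31, SE 0.16) and HOXC11 (-2.15, SE 0.19) were lower as well, without overlap between the libraries, which was a condition for naming them here. HOXC11 had 11.96 to 20.7 CPM in IP and 59.1 to 71.2 CPM in IgG.

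By both controls 8 of 35 HOX genes were ac4C(+) in siTDP43 (22.9%), beside 10.3% of all genes: HOXA3, HOXA4, HOXA5, HOXA10, HOXB4, HOXC5, HOXC6 and HOXD1. HOXA held 4 of its 10 tested genes, HOXC 2 of 8, HOXB 1 of 9 and HOXD 1 of 8. HOXA4, HOXB4 and HOXC6 were called in both genotypes, or 18.8% of those called in WT and 37.5% of those called after knockdown. The calls of HOXB4 and HOXC6 over IgG rest on 2 counts each in all siTDP43 IgG libraries together, with ratios of 31.0 (95% counting interval 8.50 to 258) and 32.7 (8.95 to 271). HOXA4 had 1.08 over input and 1.48 over IgG, and its call over input was lost without siTDP43 input replicate 2 (0.91) or without siTDP43 IP replicate 1 (0.95). Over IgG it was lost without siTDP43 IP replicate 1 (1.35), siTDP43 IgG replicate 1 (1.21) or siTDP43 IgG replicate 2 (1.27). HOXA3 read 12.04, 11.8 and 8.22 CPM in IP, 1.23 to 2.20 CPM in input and 0.734 to 1.42 CPM in IgG (2.73 over input and 3.34 over IgG). Its WT IgG libraries, at 6.21 and 4.53 CPM, had been close to its WT IP level of 6.20 to 8.08 CPM. HOXC5 read 4.73 to 6.69 CPM in IP and 1.47, 0 and 0.712 CPM in IgG (2.76), which held 6 counts together. HOXA5, the member with the highest level per length in this IP, read 118, 113 and 103 CPM in IP against 42.2 to 46.4 CPM in input and 29.1 to 60.2 CPM in IgG. HOXA10 and HOXA3, which hold the motif UCCCAGCU, were ac4C(+) here and not in WT, and HOXC11 the reverse.

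**Figure D4:**
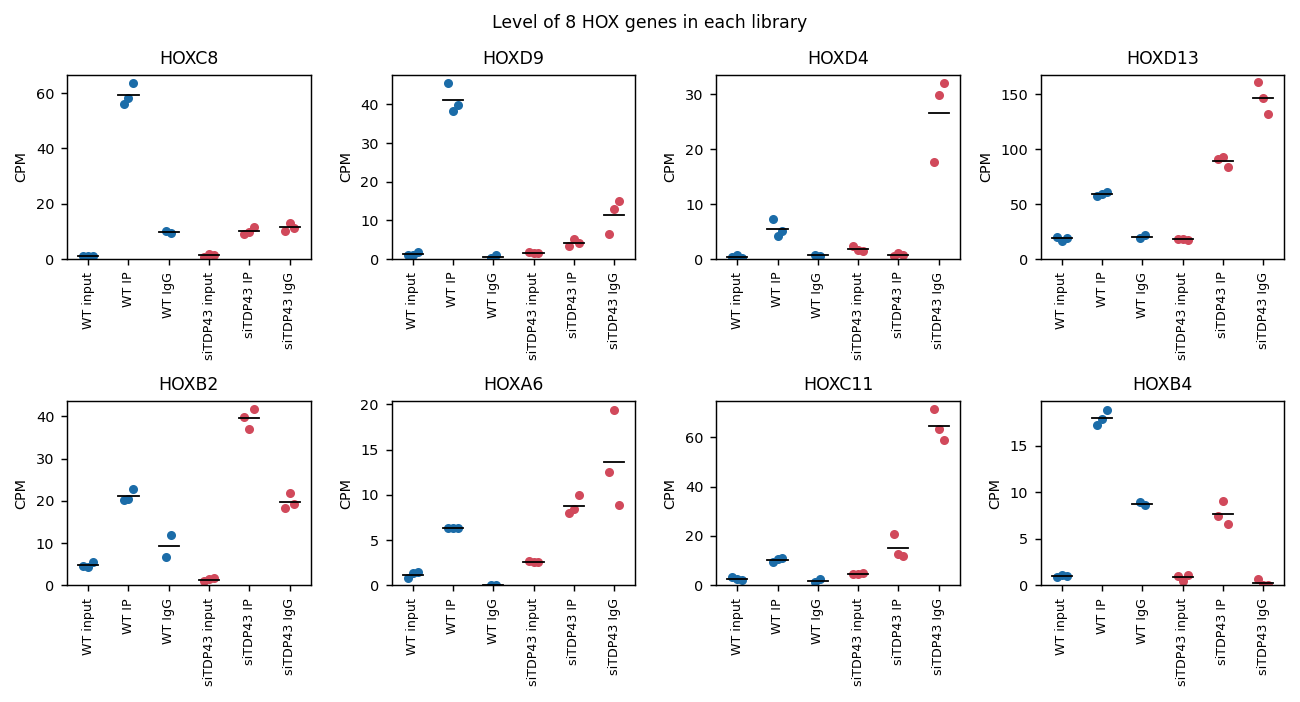
CPM of 8 HOX genes in every library (points) with the group mean (line), WT in blue and siTDP43 in red, each panel with its own axis from 0. HOXC8 and HOXD9 are highest in WT IP, whereas HOXD4, HOXD13, HOXA6 and HOXC11 have their highest group mean in siTDP43 IgG.

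Whether the enrichment itself differed between the genotypes was tested by the interaction in all 17 libraries. For IP over input, 6 of 36 HOX genes were higher and 15 lower in siTDP43 than in WT, beside 31.5% and 36.3% of all 15165 genes tested. The HOX median was -0.51 beside -0.19, and with scaling by total count -0.81 beside -0.48. HOXD4 fell most (-5.01, SE 0.57, adjusted p = 9.06e-10), going from 3.73 in WT to -1.13 in siTDP43. HOXD9 (-3.57, SE 0.36, adjusted p = 7.11e-11) and HOXC8 (-2.77, SE 0.30, adjusted p = 2.46e-10) fell too. In siTDP43 both stayed higher in IP than in input, at 1.5 and 3.01, but the IgG pull-down was also above input, at 3.01 and 3.28. For HOXD9 the siTDP43 value of IP over input was 0.33 and was not called after removal of the GC trend. HOXD1 rose most (6.16, SE 1.10, adjusted p = 8.72e-06), a value that rests on the 2 counts in WT IP. HOXB2 (2.71, SE 0.27) rose over input as well, while its interaction over IgG was not called (-0.20, SE 0.29). HOXB2 was lower in siTDP43 input, and its level in IP was 20.3 to 22.8 CPM in WT and 37.0 to 41.6 CPM in siTDP43.

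For IP over IgG, 7 of 36 were higher and 16 lower, beside 34.9% and 25.9% of all genes, with a median of -0.69 beside 0.24. HOXA6 was bounded at -6.04 or lower on the log2 scale, since it had no count in WT IgG and 8.89 to 19.4 CPM in siTDP43 IgG. HOXD4 (-8.07, SE 0.65, adjusted p = 1.22e-13) and HOXD9 (-7.54, SE 0.51, adjusted p = 1.39e-15) followed. Both control levels moved here: HOXD9 in IgG was 0.194 and 1.03 CPM in WT and 6.61, 12.9 and 14.9 CPM in siTDP43, while in IP it went from 38.2 to 45.5 CPM down to 3.42 to 5.06 CPM. HOXB4 (3.88, SE 0.81) and HOXC6 (3.19, SE 0.93) rose with few counts in siTDP43 IgG. For HOXA2, HOXA7, HOXA9 and HOXD1, at 0 in both IgG groups, no such change could be estimated. Of the 16 HOX genes ac4C(+) in WT, 9 were lower over input and 12 over IgG, and 2 were higher in each. Those genes were chosen on the same WT libraries, so these counts are a description and not independent evidence of a direction.

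**Figure D5:**
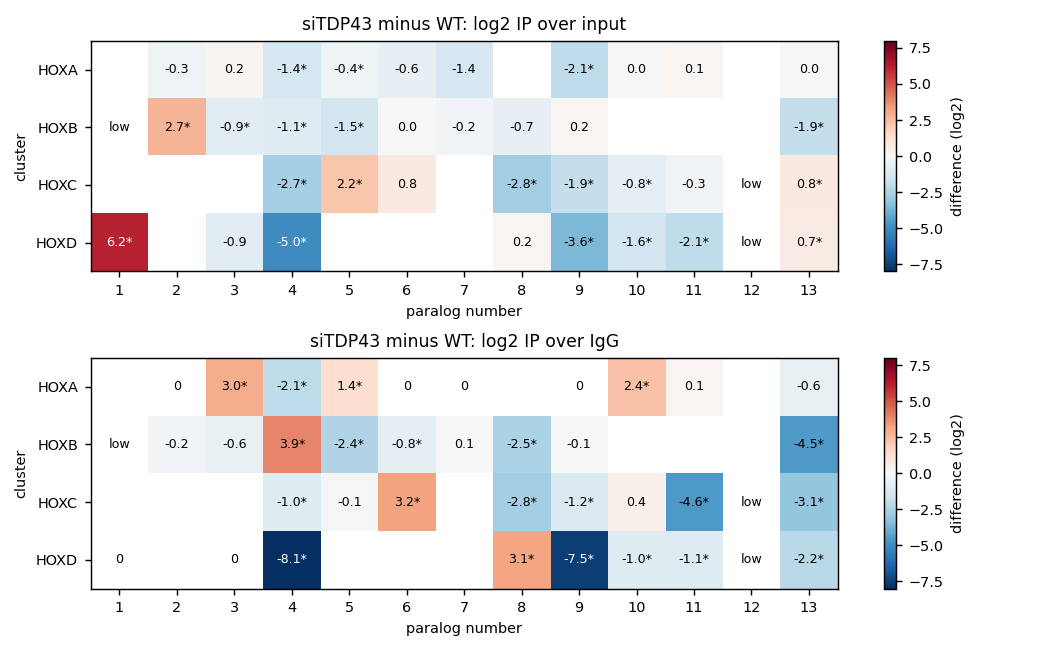
Difference in log2 enrichment between siTDP43 and WT for IP over input (top) and IP over IgG (bottom), laid out by cluster and paralog number, with an asterisk for adjusted p under 0.05, "low" for genes under the count filter, "0" for genes without counts in an IgG group and blanks where the cluster has no such gene or no value is given. HOXD4 is lowest among the values shown in both, at -5.01 and -8.07, and over IgG HOXB4 is the highest shown, at 3.88.

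Values of paralogs are set side by side for numbers 4 and 9, and their likeness was not tested. Among the paralogs of number 4, WT enrichment over input was 2.36 in HOXA4, 4.18 in HOXB4, 3.90 in HOXC4 and 3.73 in HOXD4, and all 4 were lower in siTDP43, by interaction values of -1.42, -1.06, -2.68 and -5.01. That of HOXB4 was not called without siTDP43 input replicate 1 (-0.94) or without siTDP43 input replicate 3 (-0.85). Over IgG the same genes had interaction values of -2.06, 3.88, -0.99 and -8.07, of which that of HOXA4 was lost without siTDP43 IgG replicate 3 (-1.37). Among the paralogs of number 9, WT IP over input was -2.18 in HOXA9, 2.26 in HOXB9, 2.38 in HOXC9 and 4.91 in HOXD9. In siTDP43 the values were -4.07, 2.59, 0.63 and 1.5. HOXB9 had 86.3 to 105 CPM in WT IP and 73.6 and 84.8 CPM in WT IgG, so its enrichment over input was close to that of the control pull-down (IP over IgG 0.24, SE 0.090). HOXB7 had the same form, with 50.6 to 56.0 CPM in WT IP and 57.6 and 60.9 CPM in WT IgG. HOXB7 and HOXB9 were not called over IgG in either genotype.

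The lists of HOX cofactors and regulators were read in the pull-downs as well. Over all genes the shares higher and lower were 30.2% and 27.3% for WT IP over input, 35.2% and 17.8% over IgG, and for the interactions 31.5% and 36.3% over input and 34.9% and 25.9% over IgG. Of 9 TALE cofactors 4 were higher and 1 lower in WT IP than in input, and 4 higher and 2 lower than in IgG. Of 17 Polycomb genes, input comparison gave 8 higher and 2 lower, and IgG comparison 8 and 1. Of 12 trithorax and activation genes the counts were 7 and 2 against input and 4 and 1 against IgG. The interaction over input was higher for 1 and lower for 4 TALE cofactors, higher for 7 and lower for 8 Polycomb genes, and higher for 3 and lower for 7 trithorax and activation genes. Over IgG the counts were 4 and 2, 6 and 7, and 6 and 5. For the 9 retinoic acid genes they were 1 and 4 over input and 4 and 2 over IgG. The HOX counts of 6 and 15 over input and 7 and 16 over IgG stand beside these, and no difference between the lists was tested.

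The table also held 17 other genes within the cluster spans, most of them noncoding but with the protein-coding PRAC and the read-through gene HOXA10-HOXA9 among them, and HOTTIP beside HOXA13. Of these 18 genes, 9 passed the filter in the comparisons within a genotype and in the inputs. In the inputs 3 were higher and 2 lower, beside 38.6% and 40.6% of all genes, and HOTAIR, a long noncoding RNA transcribed between HOXC11 and HOXC12, had 4.86 to 6.84 CPM in WT and 15.4 to 16.3 CPM in siTDP43 (1.42, SE 0.13, adjusted p = 1.06e-11). In WT IP 3 of 9 were higher than in input, beside 30.2% of all genes, and 5 of 9 higher than in IgG, beside 35.2%. HOTAIR passed both (1.30 and 5.15), but the value over IgG rests on 8 counts in WT IgG, at 0 and 0.776 CPM in its libraries. HOXD-AS2 had 0.142 to 0.315 CPM in siTDP43 input and 12.4 to 35.2 CPM in siTDP43 IgG, a further RNA of the clusters with a higher share in the control pull-down than in input.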

How the data were processed

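The authors trimmed reads of SMART-seq2 libraries with Trim Galore (0.6.7), aligned them to hg19 with STAR (2.7.10a) and counted uniquely placed reads per gene with featureCounts (2.0.2), as the methods and the submitters' processing notes name them. The deposited values are raw counts per gene, and the deposited exon positions and lengths were used to compute FPKM. The annotation release, strand setting and pair handling are not given in the sources used here; 81.3 to 95.9% of counts between 1 and 20 were even. The hg19 positions were checked against the GRCh37 genome: 96.4% of introns had GT and AG ends.

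Groups and replicate numbers came from sample titles. The 39 members and the gene lists were chosen with earlier results of these data known. Counts were fitted over all genes with edgeR 4.0.16 (R 4.3.3; TMM, filterByExpr with a minimum of 10, quasi-likelihood test, Benjamini-Hochberg over all genes): 6 libraries for the inputs, 8 for WT, 9 for siTDP43 and 17 for the interactions. Enrichment was called above 2-fold at an adjusted p under 0.05; the inputs and interactions needed the adjusted p only. HOXB1, HOXC12 and HOXD12 were never tested, and HOXA2 was not tested in the inputs or within siTDP43. Members named were the leading gene of each cluster in WT input, WT IP and siTDP43 IP, the 3 largest called changes each way without overlap in each comparison, all ac4C(+) members, and the members at the floor; HOXC13, HOXA13, HOXC9, HOXC10, HOXB7, HOXB9 and HOXB13 were named beyond this rule in places, after their values were seen. Groups at 0 were bounded with 3 counts over the group. All such bounds take each count as 1 fragment and would be weaker with 2 counts per fragment. No library duplicated another (chi-square per degree of freedom 3.23 to 9.17). Alternatives were DESeq2 1.42.0, edgeR with DESeq2 size factors, scaling by totals, no filter, the replicate number as a block, halved counts, a GC trend removed, limma 3.58.1 on log2(FPKM + 1), an IgG fold above 5, and omission of each library in turn. The fits were tested on simulated data. The values of 1 member, 1 gene of the lists and the homeobox sequences are not reported here, though the counts include them.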

Additional observations from a re-analysis of the deposited data

Results flagged for a closer look

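Of the members with a called interaction, 7 values stood out because enrichment was called in opposite directions in WT and siTDP43. Over input these were HOXD4 (-5.01, SE 0.57) and HOXD1 (6.16, SE 1.10), the latter with 2 counts in WT IP. Over IgG they were HOXD4 (-8.07), HOXD9 (-7.54), HOXC11 (-4.59) and HOXB5 (-2.42), which were above IgG in WT and below it in siTDP43, and HOXA10 (2.36), which was below IgG in WT and above it in siTDP43. A called edgeR interaction was a condition for this list, so it is not further evidence of these differences. For HOXD4 the siTDP43 value over input was lost without siTDP43 input replicate 1 (-0.90) or without siTDP43 IP replicate 1 (-0.91), so the opposite calls over input rest on those libraries. Over IgG the siTDP43 call of HOXB5 (-1.25) was lost with the GC trend removed (-0.98) and with limma on log2(FPKM + 1) (-0.97), and that of HOXD9 (-1.52) with limma (-0.94). With limma the WT call of HOXA10 over IgG was lost as well (-0.98). Over input limma lost both calls of HOXD1 (-0.46 in WT and 0.48 in siTDP43) and the siTDP43 call of HOXD4 (-0.68). The opposite calls of these genes thus depend on the processing too.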

How the results depend on the processing

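No called HOX gene changed its direction under any alternative run, and of the calls made, 21 of 22 in the inputs, 24 of 28 for WT IP over input, 17 of 26 for WT IP over IgG, 17 of 26 for siTDP43 IP over input and 12 of 20 for siTDP43 IP over IgG were kept under all of them. Among the interactions 18 of 21 over input and 20 of 23 over IgG were kept. With limma on log2(FPKM + 1), 2 HOX genes in place of 4 were lower in WT IP than in IgG, and 4 in place of 8 were lower in WT IgG than in input. A fold over IgG above 5 left 6 ac4C(+) HOX genes in WT and 5 in siTDP43, of which HOXD1, without IgG counts, passed by its fitted value while its bound was 4.09-fold. Leaving out 1 library at a time gave 14 to 17 ac4C(+) genes in WT and 7 to 8 in siTDP43, and GC correction, under which HOXD11 among others lost its call, gave 12 in WT. With limma on log2(FPKM + 1), HOXA4, HOXC5 and HOXD1 lost their ac4C(+) calls in siTDP43, with values over input of 0.44, 0.69 and 0.48. HOXB4 (0.997 over IgG) and HOXD3 (0.44 over input) lost theirs in WT. Of the genes called in both genotypes, only HOXC6 kept both calls with limma. Scaling by total count moved the median of all genes from -0.09 to -0.43 for siTDP43 IP over input, and the share of calls that were higher from 51.3 to 39.0%, while for siTDP43 IgG over input that share went from 37.6 to 26.9%. For the interaction over IgG the median of all genes was 0.24 with TMM and -0.13 with DESeq2, and that of HOX genes -0.69 and -1.10, so each is read against all genes of its own setting. Equal replicate numbers did not pair the libraries (correlations of deviations -0.021 to 0.027), and with the replicate number as a block 15 HOX genes were ac4C(+) in WT and 8 in siTDP43. The depth of the siTDP43 IgG libraries limits the folds over IgG of HOXB4, HOXC6, HOXA7, HOXA9, HOXD1 and HOXD3. The cause of these changes was not tested.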
